A study of Mus musculus with 47 samples.

Results

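The 8 genes described here are the classical cadherins Cdh1, Cdh2, Cdh3 and Cdh11 and the catenins Ctnna1, Ctnnb1, Ctnnd1 and Jup. A gene was represented by a probe set annotated with its symbol alone, and, where it had several, by the one with the highest mean over all arrays. These are 8 of the 12393 genes with such a probe set, and 13 probe sets carry their symbols. Genes in the lowest 30% by mean signal (log2 mean under 4.35, called the low-signal limit below) were not tested. Cdh1 and Cdh3 fell under that limit, so 6 of the 8 genes were among the 8675 tested.

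Gene expression was profiled on 47 Affymetrix mouse arrays in JB6, a cell line from mouse epidermis that the labels describe as progenitor cells. Cells stably transfected by retrovirus with an shRNA against AnxA2 (24 arrays) were compared with cells carrying the vector only (23 arrays), and both lines went through puromycin selection and were grown in MEM with 5% fetal bovine serum. Each line was left untreated (sham) and sampled at 2 and 24 h, or was given 10 or 100 cGy of X-rays and sampled at 2, 6 and 24 h. Each of the 16 groups has 3 arrays, apart from the vector group at 24 h after 10 cGy with 2. No untreated 6 h group was used here. A single shRNA line was set against a single vector line, so an effect of Anxa2 and any other difference between these lines cannot be told apart. The labels number the replicates without saying whether they were separate cultures. The p-values set differences of group means against the scatter among these arrays only, and that scatter may be technical. Precision is limited by how many arrays each group has.

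Classical cadherins are calcium-dependent receptors that bind the same or a similar cadherin on a neighbouring cell and so build adherens junctions. Their cytoplasmic tails bind β-catenin or plakoglobin and p120-catenin, and α-catenin couples that complex to actin filaments. E-cadherin (Cdh1) and P-cadherin (Cdh3) are the cadherins of epidermal keratinocytes, whereas N-cadherin (Cdh2) and cadherin-11 (Cdh11) are typical of mesenchymal cells. β-catenin also acts in the nucleus with TCF/LEF factors when Wnt signalling stops its degradation.

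Signals are the deposited log2 RMA values. Each difference is one of group means on that scale, and its standard error (SE) comes from limma fitted to all 47 arrays. A gene is said to have risen, fallen or differed where the Benjamini-Hochberg adjusted p over the 8675 tested genes was under 0.05. Anxa2 itself lay between 10.58 and 11.23 on the shRNA arrays, against 12.25 to 12.66 on the vector arrays, with no overlap, while the labels state a knockdown above 95% by other methods. The first 2 principal components held 51.3% and 19.5% of the variance. On the second component 3 vector arrays at 2 h, all numbered replicate 3, lay between -2.37 and 1.75, while the other 6 lay between -19.56 and -16.91. The difference between 3′ and 5′ Gapdh control signals, a sign of RNA degradation, was 1.06 on shRNA 10 cGy 6 h replicate 1. It was 0.594 on vector untreated 2 h replicate 3, 0.492 on shRNA 100 cGy 2 h replicate 2 and 0.309 on shRNA untreated 2 h replicate 1. On every other array it was at most 0.173. The labels give no batch.

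Of the 4 cadherins, Cdh1 and Cdh3 were low in both lines, Cdh2 was above the low-signal limit in both, and Cdh11 was above it in vector cells alone. Cdh1, the defining cadherin of epithelia, had a median of 2.40 in shRNA cells (2.20 to 2.56) and of 2.38 in vector cells (2.16 to 2.65). No array of either line reached the low-signal limit. Cdh3, a cadherin of basal keratinocytes and hair follicles, had a median of 4.27 in shRNA cells (4.01 to 4.48) and of 4.19 in vector cells (3.92 to 4.38). It exceeded the limit on 5 shRNA arrays and 2 vector arrays. With no filter on low signal, shRNA minus vector in untreated cells was -0.02 for Cdh1 (adjusted p = 0.847) and 0.11 for Cdh3 (adjusted p = 0.31). Cdh2 exceeded the limit on all 24 shRNA and all 23 vector arrays, and Cdh11 on 0 shRNA arrays and all 23 vector arrays.

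**Figure D1:**
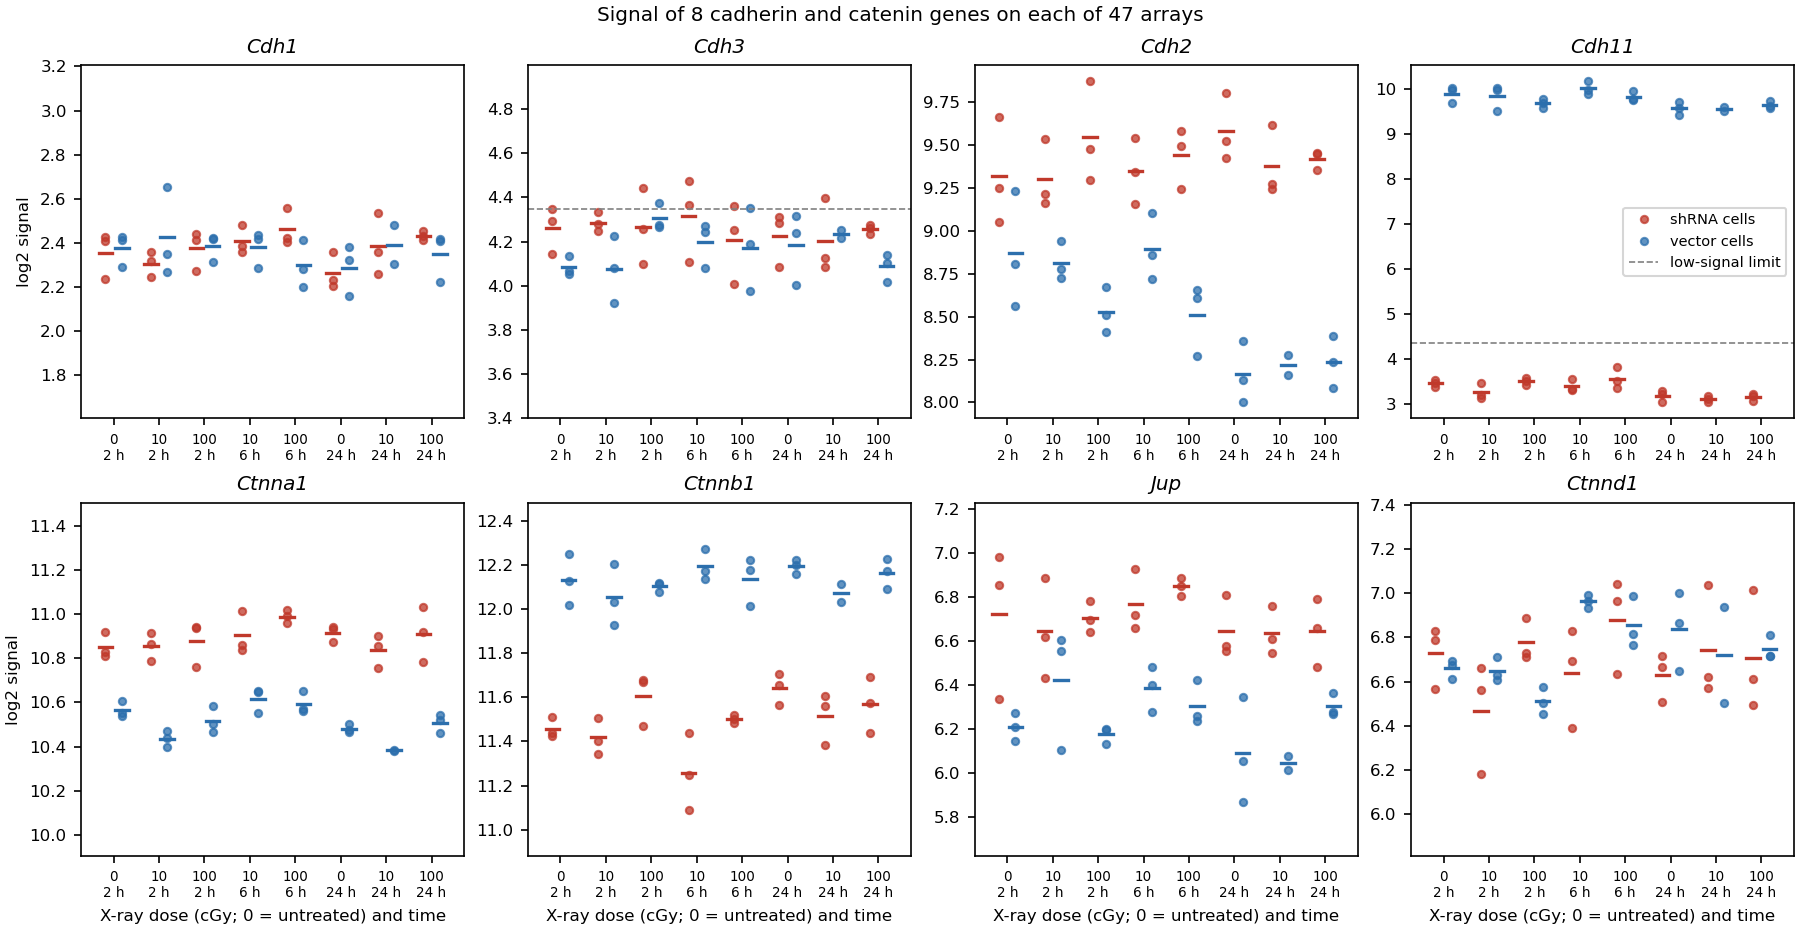
Log2 signal of the 8 genes on each of the 47 arrays (points) with group means (bars), by dose (0 is untreated) and time, shRNA cells in red and vector cells in blue. The dashed line in the Cdh3 and Cdh11 panels is the low-signal limit of 4.35. Cdh11 lies under the limit on every shRNA array and at 9.42 or above on every vector array, while Cdh1 stays between 2.16 and 2.65 in both lines. Each panel has its own vertical scale.

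In the untreated comparison of the lines, 5 of the 6 tested genes differed, against 48.2% of all tested genes, whose median difference was 0.02. Cdh11 is counted among the 5, although it passed the low-signal filter only through its level in vector cells. shRNA cells had more Cdh2, Ctnna1 and Jup RNA and less Cdh11 and Ctnnb1 RNA than vector cells, and Ctnnd1 did not pass the test. These are bulk samples, so fewer cells that express a gene and less RNA per cell cannot be told apart.

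Cdh11, a cadherin of osteoblasts and fibroblasts, was lower in shRNA cells. In untreated shRNA cells it stood at 3.38, 3.46 and 3.54 at 2 h and at 3.28, 3.04 and 3.22 at 24 h. In untreated vector cells it stood at 10.02, 9.69 and 9.98 at 2 h and at 9.58, 9.72 and 9.42 at 24 h. Every shRNA array was below the low-signal limit and every vector array far above it, with no overlap in any condition. Since a signal under the limit has only an upper bound, the difference is given against the limit. Cdh11 was at least 41.8-fold lower in untreated shRNA cells. No p-value is given with this bound, since the fitted difference uses shRNA signals under the limit. Cdh11 also passed the filter only through vector cells. Over the 8 conditions the bound ran from 36.6-fold at 24 h after 10 cGy to 50.6-fold at 6 h after 10 cGy. The limit is a percentile of gene means and not a measured background.

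Cdh2, the other mesenchymal cadherin, was higher in shRNA cells. Over both untreated times it had a lowest value of 9.05, a median of 9.47 and a highest value of 9.81 in shRNA cells, and 8.00, 8.46 and 9.23 in vector cells. The ranges overlapped, with 4 of the 24 shRNA arrays of all conditions inside the vector range. The untreated difference was 0.94 ± 0.115 (SE), or 1.92-fold (adjusted p = 1.01e-08). A second Cdh2 probe set lay between 8.42 and 8.89 in shRNA cells, against 7.11 to 7.94 in vector cells, without overlap. In a fit over 13965 probe sets it differed by 1.198 ± 0.07 in untreated cells (adjusted p = 7.6e-17).

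The catenins differed in both directions. Ctnna1, which encodes αE-catenin and couples the complex to actin, had a median of 10.91 in shRNA cells (10.76 to 11.03) and of 10.52 in vector cells (10.38 to 10.65). Every shRNA array exceeded every vector array, and the untreated difference was 0.36 ± 0.05, or 1.28-fold (adjusted p = 3.91e-08). Ctnnb1, which encodes β-catenin, had a median of 11.51 in shRNA cells (11.09 to 11.71) and of 12.14 in vector cells (11.93 to 12.27). Here every shRNA array was below every vector array, with an untreated difference of -0.61 ± 0.06 (adjusted p = 7.67e-11), 0.654 of the vector level. Its other probe sets differed by -0.79 (adjusted p = 3.12e-06) and -0.88 (adjusted p = 0.00087) in untreated cells.

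Jup encodes plakoglobin, the close relative of β-catenin that binds both classical and desmosomal cadherins. In untreated shRNA cells it was 6.85, 6.98 and 6.34 at 2 h and 6.57, 6.81 and 6.55 at 24 h. In untreated vector cells it was 6.27, 6.15 and 6.21 at 2 h and 6.35, 6.06 and 5.87 at 24 h. The lowest shRNA array lay just under the highest vector array, and at each time the groups did not overlap. The untreated difference was 0.53 ± 0.09, or 1.45-fold (adjusted p = 7.73e-06), opposite in sign to that of Ctnnb1. Ctnnd1, which encodes p120-catenin and holds cadherins at the cell surface, had a median of 6.68 in shRNA cells (6.18 to 7.04) and of 6.71 in vector cells, and 19 of the 24 shRNA arrays lay in the vector range. Its untreated difference was -0.07 with a 95% interval of -0.26 to 0.13 (adjusted p = 0.581).

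β-catenin and plakoglobin share their place on the cadherin tail and differed between the lines in opposite directions, so their promoters are shown together. Both come from RefSeq on GRCm38.p6 and span 250 bases before to 50 bases after the annotated start, 5′ to 3′ on the strand of the gene. Capitals mark GC boxes (GGGCGG or, read on the other strand, CCGCCC). Ctnnb1 lies at chr9:120933150-120933449 on the plus strand (the first of its 2 table entries) and Jup at chr11:100397741-100398040 on the minus strand.
Ctnnb1: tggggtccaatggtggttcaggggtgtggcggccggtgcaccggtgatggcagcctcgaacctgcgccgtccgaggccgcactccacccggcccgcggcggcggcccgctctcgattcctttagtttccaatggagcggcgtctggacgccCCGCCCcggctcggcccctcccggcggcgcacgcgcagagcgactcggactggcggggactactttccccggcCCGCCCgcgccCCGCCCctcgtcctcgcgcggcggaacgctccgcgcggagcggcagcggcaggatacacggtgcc
Jup: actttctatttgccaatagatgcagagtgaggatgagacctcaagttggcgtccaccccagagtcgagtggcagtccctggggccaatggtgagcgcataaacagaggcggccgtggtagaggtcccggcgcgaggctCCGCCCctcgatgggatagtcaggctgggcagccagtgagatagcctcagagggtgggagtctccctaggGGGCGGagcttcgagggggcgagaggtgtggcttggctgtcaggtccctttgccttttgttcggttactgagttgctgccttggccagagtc

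The Ctnnb1 window holds 3 GC boxes and 46 CpG dinucleotides at 75.3% G and C. The Jup window holds 2 GC boxes and 14 CpG dinucleotides at 60.7% G and C. A GC box in either direction occurs in 35.7% of 32851 RefSeq promoters of the same length. The E-box CACCTG, searched on both strands and the motif that Snail and Zeb factors bind, occurs in 20.2% of them and in 0 of the Ctnnb1, Jup and Ctnnd1 windows. These are matches of letters in a window and were not set against binding data.

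By condition, 39 of the 48 gene and condition pairs differed between the lines, 23 of them higher and 16 lower in shRNA cells. These counts include Cdh11, which passed the low-signal filter only through vector cells and gave 8 of the 16 lower calls. Cdh2 and Ctnna1 were higher, and Cdh11 and Ctnnb1 lower, in all 8 conditions. Jup was higher in 7 of 8, and Ctnnd1 differed in 0 of 8. Of all tested genes, 33.8% differed in untreated cells at 2 h and 39.3% in untreated cells at 24 h. After 10 cGy the share was 33.4% at 2 h, 35.7% at 6 h and 33.7% at 24 h, and after 100 cGy it was 40%, 37.2% and 38.3%. The condition estimates use separate arrays, but all share 1 estimate of the spread.

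**Figure D2:**
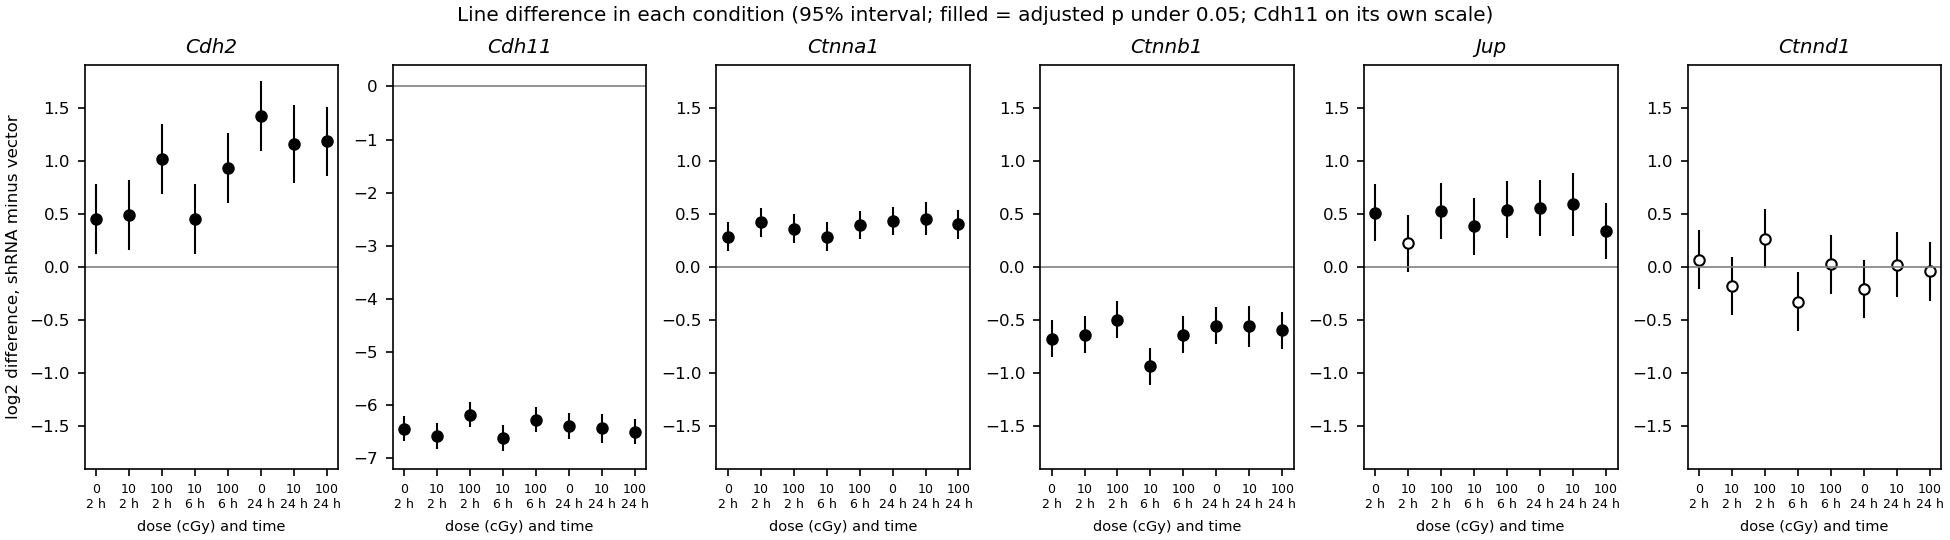
Log2 difference, shRNA minus vector, of the 6 tested genes in each of the 8 dose and time conditions with 95% intervals. Filled points have an adjusted p under 0.05. Cdh2 runs from 0.45 to 1.42, Ctnna1 from 0.29 to 0.46 and Jup from 0.22 to 0.59, all above 0, while Ctnnb1 runs from -0.94 to -0.50. Cdh11 has its own scale, and its points between -6.62 and -6.18 use shRNA signals under the low-signal limit.

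On the probe set used, the Cdh2 difference ran from 0.45 to 1.42 over the conditions. At 2 h without treatment it stood at 9.67, 9.25 and 9.05 in shRNA cells, against 8.81, 8.56 and 9.23 in vector cells. In the 10 cGy groups at 2 h the shRNA arrays read 9.21, 9.53 and 9.16, against 8.78, 8.94 and 8.73 in vector cells. In the 100 cGy groups at 2 h the shRNA arrays read 9.48, 9.87 and 9.30, against 8.51, 8.41 and 8.67 in vector cells. The groups overlapped only in untreated cells, and the log2 differences were 0.45, 0.49 and 1.02 at 0, 10 and 100 cGy.

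At 6 h after 10 cGy Cdh2 was 9.54, 9.35 and 9.16 in shRNA cells, against 8.72, 9.11 and 8.86 in vector cells. At 6 h after 100 cGy it was 9.58, 9.25 and 9.49 in shRNA cells, against 8.61, 8.66 and 8.27 in vector cells. Neither pair of groups overlapped, and the differences were 0.45 and 0.93. On the second probe set they were 0.96 after 10 cGy and 1.19 after 100 cGy. The gap was wider at 24 h in each treatment. Untreated shRNA cells were then at 9.52, 9.42 and 9.81, against 8.13, 8.36 and 8.00 in vector cells. After 10 cGy shRNA cells were at 9.62, 9.27 and 9.24, against 8.16 and 8.28 in vector cells. After 100 cGy shRNA cells were at 9.46, 9.45 and 9.36, against 8.08, 8.38 and 8.23 in vector cells. The 24 h differences were 1.42 in untreated cells, 1.16 after 10 cGy and 1.19 after 100 cGy, with standard errors of 0.162, 0.181 and 0.162.

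The calls behind the 3 smallest Cdh2 differences depended on single arrays. In untreated cells at 2 h the value was 0.28 (adjusted p = 0.234) without shRNA replicate 1, 0.42 (adjusted p = 0.0793) without vector replicate 1 and 0.30 (adjusted p = 0.199) without vector replicate 2. At 2 h after 10 cGy it was 0.37 (adjusted p = 0.118) without shRNA replicate 2 and 0.44 (adjusted p = 0.0597) without vector replicate 3. At 6 h after 10 cGy the adjusted p was between 0.0517 and 0.135 without shRNA replicate 1 or 2 or vector replicate 1 or 3. On each of the 4 arrays with a raised Gapdh difference, Cdh2 was the highest of its group (9.54, 9.23, 9.87 and 9.67), while on the second Cdh2 probe set 2 of these 4 arrays were the highest and 2 ranked next. Without those 4 arrays the difference was 0.36 (adjusted p = 0.0552) at 6 h after 10 cGy and 0.94 (adjusted p = 2.46e-09) over untreated cells. In the same 3 conditions the difference on the second probe set, not tested by condition, was 0.93 in untreated cells at 2 h. It was 0.91 at 2 h after 10 cGy and 0.96 at 6 h after 10 cGy. On that probe set the groups did not overlap in any of the 8 conditions.

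Ctnnb1 was lowest in shRNA cells at 6 h after 10 cGy, with 11.09, 11.44 and 11.25, against 12.17, 12.27 and 12.14 in vector cells. The difference was -0.94 ± 0.09, and in the other 7 conditions it lay between -0.67 and -0.50. The lowest of these arrays is the one with the Gapdh difference of 1.06, and on it the other Ctnnb1 probe sets stood at 7.91 and 6.15, against 9.16 and 9.09 and against 8.53 and 8.45 on its group mates. Without that array the difference was -0.85 (adjusted p = 2.01e-09). The part of RNA quality in the remaining gap was not tested.

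The smallest Jup difference was at 2 h after 10 cGy, with 6.62, 6.88 and 6.43 in shRNA cells, against 6.55, 6.60 and 6.11 in vector cells. These groups overlapped, and the difference of 0.22 did not pass the test (adjusted p = 0.205, 95% interval -0.04 to 0.49). In the other 7 conditions the groups did not overlap and the differences lay between 0.34 and 0.59. The call at 6 h after 10 cGy was lost without shRNA replicate 1 (0.30, adjusted p = 0.113) or vector replicate 1 (0.33, adjusted p = 0.0894). The call at 24 h after 100 cGy was lost without shRNA replicate 1 or 3 or vector replicate 1 or 3, with adjusted p between 0.0842 and 0.164. For Ctnnd1 the differences lay between -0.33 and 0.27, without a call. The value reached -0.42 (adjusted p = 0.0272) at 6 h after 10 cGy without shRNA replicate 2.

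Between 2 and 24 h Cdh2 and Cdh11 fell in vector cells, and no catenin was called in either line. Cdh11 is left out of the counts within shRNA cells, since it lay under the low-signal limit on every shRNA array and was tested only through its level in vector cells. Over 3 pairs of times in each line, 7 of the other 33 gene and comparison pairs were called, 2 rising and 5 falling. Comparisons of 24 h with 2 h use all treatments, and those with 6 h use the irradiated groups. Comparisons within a line share arrays. In shRNA cells limma called 0 of 5 genes between 24 h and 2 h (42.7% of all tested genes; 0 of the 5 had an unadjusted p under 0.05). It called 0 of 5 between 6 h and 2 h (21.5%; 1 had an unadjusted p under 0.05) and 1 of 5 between 24 h and 6 h (39.2%). In vector cells 2 of 6 were called between 24 h and 2 h (44.3%), 1 of 6 between 6 h and 2 h (16.7%) and 3 of 6 between 24 h and 6 h (39%).

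In vector cells Cdh2 fell at 24 h. Its lowest, median and highest values were 8.00, 8.20 and 8.38 at 24 h, against 8.41, 8.73 and 9.23 at 2 h. No array at 24 h reached any array at 2 h, and Cdh2 fell by 0.53 on the log2 scale (SE 0.097, adjusted p = 2.25e-05). In irradiated vector cells it ran from 8.27 to 9.11 at 6 h, and at 24 h it was 0.48 lower on the log2 scale than at 6 h (-0.48, adjusted p = 0.00167). In shRNA cells its lowest, median and highest values were 9.24, 9.45 and 9.81 at 24 h, against 9.05, 9.30 and 9.87 at 2 h. The shRNA ranges overlapped almost wholly, with a difference of 0.07 and a 95% interval of -0.12 to 0.26 (adjusted p = 0.604).

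Cdh11 also fell at 24 h in vector cells. Its lowest, median and highest values there were 9.42, 9.59 and 9.73 at 24 h, against 9.52, 9.79 and 10.02 at 2 h. These ranges overlapped, and the change was -0.22 ± 0.07 (adjusted p = 0.0125). Against 6 h, when irradiated vector cells ran from 9.76 to 10.17, the change was -0.32 ± 0.09 (adjusted p = 0.00349), without overlap. In shRNA cells all signals lay between 3.04 and 3.81, under the low-signal limit, so no change over time is given for that line.

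Among the catenins, 3 changes over time were called. In shRNA cells Ctnnb1 rose by 0.16 ± 0.06 at 24 h against 6 h (adjusted p = 0.0307), with 11.39, 11.57 and 11.69 as lowest, median and highest value at 24 h, against 11.09, 11.46 and 11.52 at 6 h. The ranges overlapped, and the call was lost in 9 of 24 alternatives. Among these, the change was 0.12 (adjusted p = 0.122) without shRNA 10 cGy 6 h replicate 1 and 0.11 (adjusted p = 0.189) with every array centred on its median. In vector cells Ctnna1 fell by 0.16 on the log2 scale at 24 h against 6 h (adjusted p = 0.00925), and Ctnnd1 rose by 0.33 ± 0.10 at 6 h against 2 h (adjusted p = 0.0141). Ctnnd1 ran from 6.77 to 6.99 at 6 h, against 6.45 to 6.71 at 2 h, without overlap. Jup had 0 calls among its 6 comparisons, with differences between -0.17 and 0.13.

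**Figure D3:**
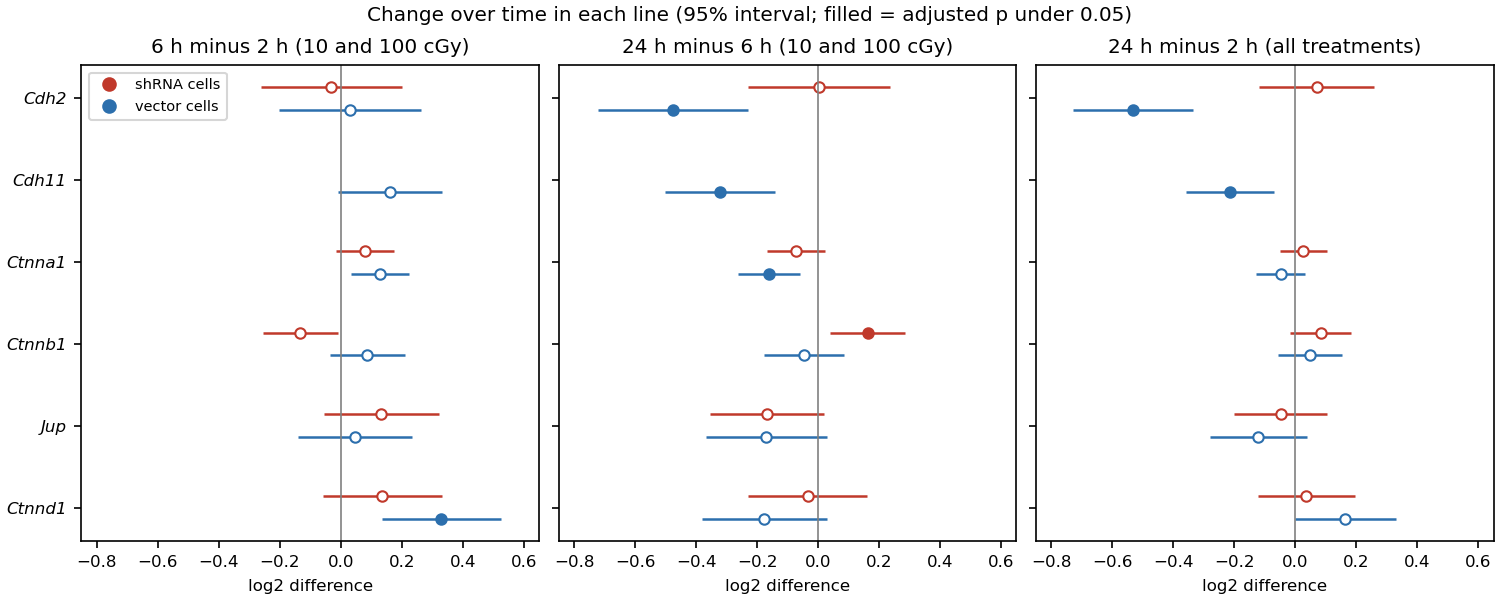
Log2 change over time of the 6 tested genes within shRNA cells (red) and vector cells (blue), with 95% intervals, for 6 h minus 2 h, 24 h minus 6 h and 24 h minus 2 h. Filled points have an adjusted p under 0.05. Cdh2 lies at -0.48 and -0.53 in vector cells in the comparisons with 24 h, and at 0.00 and 0.07 in shRNA cells. Cdh11 is drawn for vector cells alone, since its shRNA signals lie under the low-signal limit.

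A single test over all 8 groups of a line was also run. In shRNA cells Ctnnb1 differed among the groups (moderated F, adjusted p = 0.00809), 1 of the 5 genes above the limit there, against 41.7% of all tested genes. In vector cells Cdh2 and Cdh11 did (adjusted p = 0.000226 and 0.014), 2 of 6 against 40.6%. The lowest Ctnnb1 group in shRNA cells, 6 h after 10 cGy, holds the array with the Gapdh difference of 1.06. The test was not repeated without that array. Group means of Cdh2 spanned 0.28 in shRNA cells, from 9.30 to 9.59, and 0.73 in vector cells, from 8.16 to 8.90.

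Whether a response differed between the lines was tested directly, as the shRNA change minus the vector change. Cdh11 was left out again. Of the other 25 pairs 1 was called, the change of Cdh2 between 2 and 24 h. It was 0.07 in shRNA cells and -0.53 in vector cells, a difference of 0.60 ± 0.135 (95% interval 0.33 to 0.88, adjusted p = 0.00123). The second Cdh2 probe set gave 0.37 ± 0.08 (adjusted p = 0.00122). Among all tested genes 18.2% were called in this comparison, so 1 of 5 is near the background share. For 6 h against 2 h limma called 0 of 5 genes (2.85% of all genes; 1 had an unadjusted p under 0.05), and for 24 h against 6 h 0 of 5 (10.1%; 2 had an unadjusted p under 0.05). Cdh2 came to 0.48 (adjusted p = 0.0601) in the comparison of 24 h with 6 h, which shares its 24 h arrays with the first.

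Without the 3 vector arrays at 2 h that stood apart on the second principal component, the Cdh2 difference of responses was 0.53 (adjusted p = 0.00347). Without the 4 arrays with a raised Gapdh difference it was 0.65 (adjusted p = 6.69e-05). For the responses to 100 cGy, limma called 0 of 5 genes at 2 h (0.0115% of all genes; 1 had an unadjusted p under 0.05) and 0 of 5 at 24 h (0.0807%; 0 had one). Cdh2 at 2 h came to 0.57 with a 95% interval of 0.10 to 1.03 (adjusted p = 0.348).

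None of the genes passed the test for a change with X-ray dose. Of 55 pairs of gene and dose comparison, with Cdh11 in shRNA cells left out, limma called 0 at an adjusted p under 0.05, and 3 had an unadjusted p under 0.05. Few genes of the whole array were called either. At 2 h 0.0115% of tested genes were called after 10 cGy and 0.0231% after 100 cGy in shRNA cells, and 0% and 0.0461% in vector cells. At 24 h 0% were called after 10 cGy and 0.161% after 100 cGy in shRNA cells, and 0.0115% and 0.0922% in vector cells. Between 100 and 10 cGy at 6 h 0% were called in shRNA cells and 0.0922% in vector cells. The comparisons of both doses with untreated cells share the untreated arrays.

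The 3 pairs with an unadjusted p under 0.05 were Cdh2 in vector cells after 100 cGy, at 2 h and at 6 h, and Ctnnb1 in shRNA cells at 6 h. Cdh2 in vector cells was -0.34 against untreated cells at 2 h (95% interval -0.67 to -0.01, adjusted p = 0.428). It was -0.38 against 10 cGy at 6 h (95% interval -0.71 to -0.06, adjusted p = 0.917). Ctnnb1 in shRNA cells was 0.24 higher after 100 than after 10 cGy at 6 h (95% interval 0.07 to 0.42, adjusted p = 0.999), in the comparison that holds the array with the Gapdh difference of 1.06. Over all 10 comparisons the 95% intervals stayed within -0.71 and 0.56 for Cdh2 and -0.26 and 0.22 for Ctnna1, and over the 5 in vector cells within -0.46 and 0.32 for Cdh11. Over all 10 they stayed within -0.31 and 0.42 for Ctnnb1, -0.54 and 0.52 for Ctnnd1 and -0.35 and 0.48 for Jup.

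**Figure D4:**
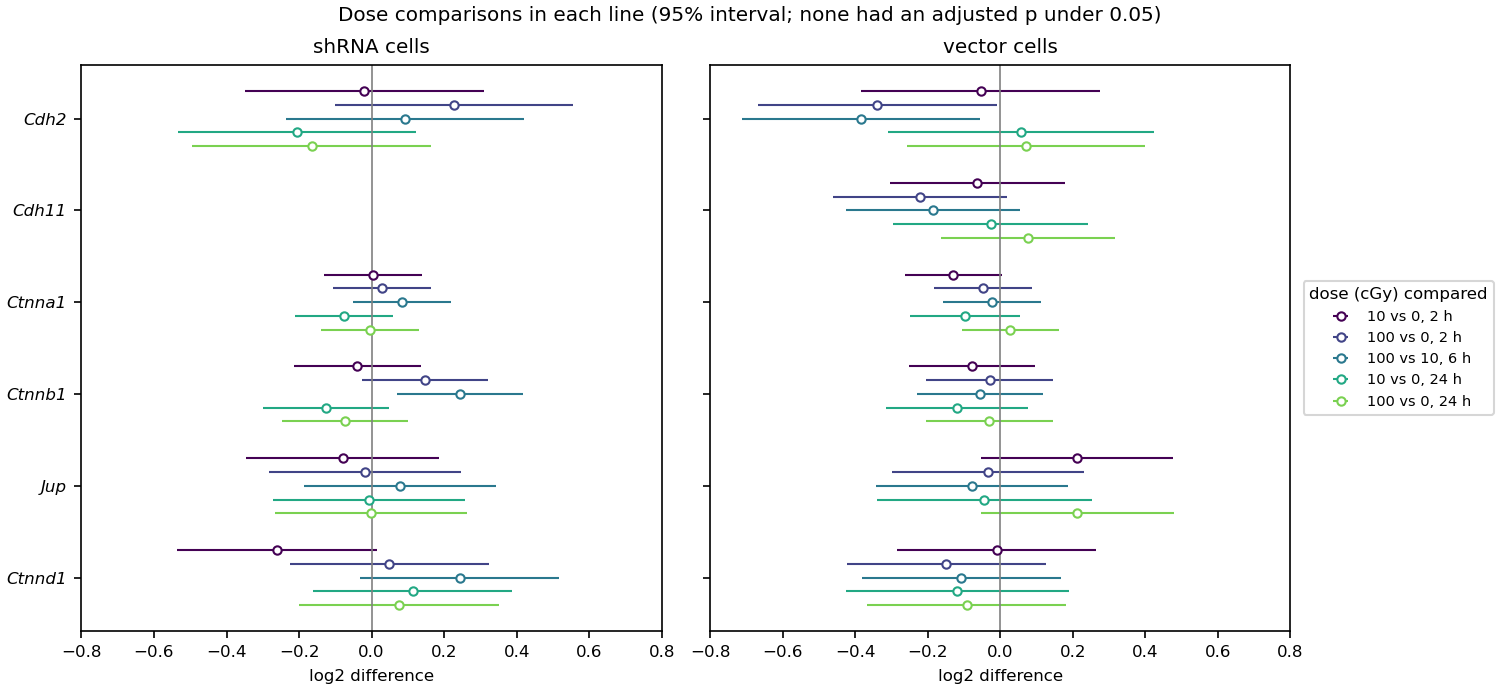
Log2 difference between doses for the 6 tested genes, within shRNA cells (left) and vector cells (right), with 95% intervals; 0 is untreated, and Cdh11 is drawn for vector cells alone. No comparison had an adjusted p under 0.05, and the 3 intervals that leave out 0 belong to Cdh2 in vector cells at 2 h and 6 h after 100 cGy and to Ctnnb1 in shRNA cells at 6 h.

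The genes around the cadherins are given for untreated cells as counts beside the 48.2% of all tested genes that differed and their median of 0.02. The lists were chosen with results of these data known. A gene given as an at-least fold was under the limit in shRNA or vector cells. It passed the filter only through the other line, and the counts include such genes. Of 9 measured other classical cadherins 2 were above the limit, and 1 of them differed. Cdh6, a kidney and neural crest cadherin, was lower in shRNA cells by a log2 difference of -1.44 ± 0.22, and it fell at 24 h in both lines (-1.23 in shRNA and -1.44 in vector cells). Of 9 tested other members of the superfamily 4 were higher and 1 was lower in shRNA cells (median 0.21). T-cadherin (Cdh13), which has no cytoplasmic tail, differed by 0.77, Clstn1 by 0.76, Pcdhb17 by 0.92 and Pcdh7 by -0.85.

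Of 20 tested other catenins and proteins bound to the cadherin complex 10 were higher and 3 lower in shRNA cells (median 0.20). Ptprf, a receptor phosphatase found at adherens junctions, was at least 4.23-fold higher, with vector cells under the limit. Pkp4, a relative of p120-catenin, differed by 0.86 and the tyrosine kinase Fer by 0.59. Lima1, which binds α-catenin and actin, differed by -0.69. Of 6 nectins and their partners 3 were higher (median 0.18), among them Nectin3 (0.82), Pvr (0.88) and Sorbs3 (0.24).

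Other junction types were sparse. Of 11 measured desmosomal genes 5 were tested, and desmoplakin (Dsp) was under the limit with 3.27 in both lines. Plakophilin 1 (Pkp1) was higher in shRNA cells by 0.65 and plakophilin 2 (Pkp2) at least 1.92-fold lower (list median 0.12). Of 13 measured tight junction genes 3 were tested and 2 were higher (median 0.22). The junctional adhesion molecule F11r differed by 2.60 ± 0.15 and Cxadr by 0.22.

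Among 15 tested transcription factors linked to cadherin switching 3 were higher and 3 lower in shRNA cells (median 0.09). The bHLH factor Tcf4 differed by -1.04, Tcf3 by -0.36, Zeb2 by 0.76 and Snai2 by 0.35. Of 17 genes of the β-catenin destruction complex and its regulators 8 were higher and 2 lower (median 0.20). The scaffold Apc differed by 0.81, Csnk1a1 by 0.29, Frat2 by 0.46 and Dvl2 by -0.37. Of 12 nuclear partners and targets of β-catenin 2 were higher and 2 lower (median 0.06), with Bambi at 0.95, Pygo2 at 0.40, Tcf7l2 at -0.50 and Cd44 at -0.20. Of 12 proteases that cut or mature cadherins 4 were higher and 3 lower (median 0.06). All 3 lower genes were under the limit in untreated shRNA cells, so they passed the filter only through vector cells. Mmp3, which can shed E-cadherin, was at least 22.9-fold lower and Mmp9 at least 3.79-fold lower, while Adam9 differed by 0.35 and Furin by 0.43.

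The epidermal label was checked against marker genes. Of 17 measured epithelial and keratinocyte markers 8 were above the limit, 3 were higher in shRNA cells and 0 lower (median 0.16). Krt14, a keratin of basal keratinocytes, averaged 6.72 in shRNA and 3.73 in vector cells, at least 5.17-fold higher. Lamb3 differed by 2.38 and Sfn was at least 1.09-fold higher. Krt14 and Sfn were under the limit in vector cells, so they passed the filter only through shRNA cells. By their mean over all arrays 9 of the 17 measured markers were under the limit. Epcam, Krt18 and Trp63 were under it in both lines and were picked after their values were seen. The markers above the limit that were not called are not named here. The summed linear signal of this list was 479.8 to 562.2 on shRNA arrays, against 305 to 330.8 on vector arrays.

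Of 15 tested fibroblast markers 7 were higher and 4 lower in shRNA cells (median 0.11), and their summed signal was 39800 to 47630 on shRNA arrays, against 34540 to 40210 on vector arrays. Pdgfra, a receptor of fibroblasts, differed by -2.58, Acta2 by 0.49, Col5a1 by 0.57 and Col1a2 by 0.65. Vimentin (Vim), an intermediate filament protein of mesenchymal cells, was above the limit in both lines and differed by 0.30. Of the markers of other cell types, 3 were tested in each list and 1 in each was called. Endothelial Egfl7 differed by 0.27 (list median 0.24), leukocyte Lyz2 by 0.44 (0.15), with Ptprc under the limit, and melanocyte Mitf by -1.49 (0.04). The endothelial list summed to 173 to 218.4 on shRNA arrays, against 157.3 to 188.2 on vector arrays, and the leukocyte list to 143.4 to 160.2, against 131.8 to 151.2. The melanocyte list summed to 147.9 to 180 on shRNA arrays, against 208.1 to 260.4 on vector arrays. Among these cell type lists, the sums of the epithelial and melanocyte lists did not overlap between the lines, and those of the other 3 did. A linear sum weighs the genes of highest signal most, so it does not show a shift of a whole list. The share of tested genes called was 37.5% in the epithelial, 73.3% in the fibroblast and 33.3% in each of the other 3 lists, against 48.2% of all genes. The part of these cell type markers in the cadherin differences was not tested.

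**Figure D5:**
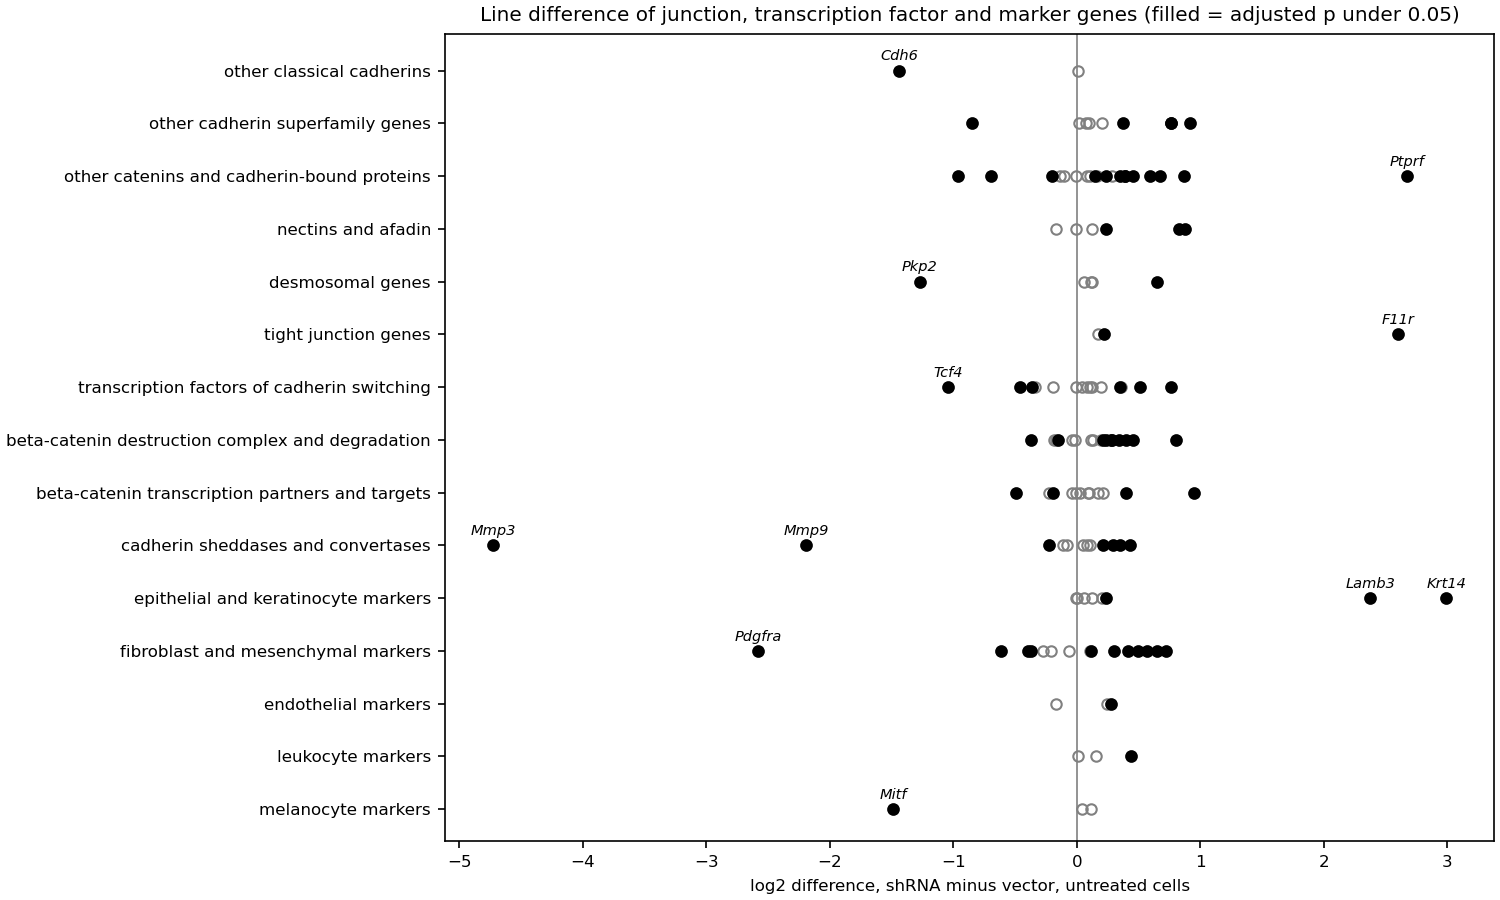
Log2 difference, shRNA minus vector, in untreated cells for each tested gene (point) of the lists described. Filled points have an adjusted p under 0.05, and called genes past 1 in either direction are named. F11r (2.60) and Lamb3 (2.38) lie above 1 and Pdgfra (-2.58), Mitf (-1.49), Cdh6 (-1.44) and Tcf4 (-1.04) below -1. Some points use signals under the low-signal limit in 1 line, among them Mmp3, Mmp9, Pcsk6, Pkp2, Krt14, Ptprf, Sfn, Frat1 and Dvl3.

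The genes whose course over dose and time was most like that of Cdh2 were found by Pearson correlation over the 16 group means, after the mean of each line was subtracted. This is a description over group means from the same arrays. The nearest were Tfap2a (r = 0.94), Cast (r = 0.936) and Galnt1 (r = 0.935). At 24 h against 2 h they changed by -0.40, -0.74 and -0.39 in vector cells and by 0.12, 0.19 and -0.03 in shRNA cells. All 3 were called in vector cells (44.3% of all tested genes) and 0 of them in shRNA cells (42.7%). They were picked for their likeness to Cdh2 on the same arrays, so this pattern follows from the choice.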

How the data were processed

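RNA of JB6 cells was measured on 47 arrays in 16 groups of line, dose and time, grouped as the labels give them. The deposited values are log2 signals made by the authors with RMA, per the submitters' processing notes; its version and the array model are not given in the sources used here. They were used as deposited, and 0 value columns were left unused. Of 22690 probe sets, 64 controls, 691 with several symbols and 1555 with none were left out, and 20380 with 1 symbol were kept.

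A single limma fit (version 3.58.1, R 4.3.3) of 16 group means gave every contrast, with 31 residual and 5.68 prior degrees of freedom. Tests are two-sided, with Benjamini-Hochberg adjustment over the 8675 genes of each contrast. Groups of 2 arrays are taken to vary like the others. The members and the 16 gene lists were chosen with earlier results of these data known, and 1 list is not reported here. All 8 members were named, with up to 4 called genes of smallest p per list, the 3 genes most like Cdh2 in course, and Anxa2; the rule also covers genes most like Cdh11, which are not given, since its group means in shRNA cells lie under the low-signal limit. Genes outside this rule (Dsp, Vim, Epcam, Krt18, Trp63 and Ptprc) were chosen after their values were seen, as markers of their lists. Promoters come from the RefSeq table of GRCm38.p6, which lists Ctnnb1, Ctnnd1 and Jup. Same-numbered arrays of 1 line and time deviated together in 27 of 40 pairs (r over 0.1), against 18 of 80 differently numbered pairs. The mean r was 0.218 and -0.0987. The labels do not pair the samples, so the main fit has no replicate term. Alternatives covered the filter, the probe set, the scaling, the variance model, array weights, the groups in the fit, a replicate block and arrays left out.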

Additional observations from a re-analysis of the deposited data

Results flagged for a closer look

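The change of Cdh2 between 2 and 24 h differed between the lines by 0.60 (shRNA minus vector, adjusted p = 0.00123 by limma), by a test of the difference itself. In shRNA cells Cdh2 changed by 0.07 and in vector cells by -0.53, and over 46 alternatives the difference of the changes ran from 0.49 to 0.73 and remained past the threshold in each, with adjusted p up to 0.00388.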

How the results depend on the processing

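Of 180 gene and comparison pairs 54 were called, and 45 of these kept their call under each of the 59 alternatives that touched them; no call changed sign under any. With limma's default array weights, whose estimate stopped before it converged, the calls in the time course were 16 in place of 9, in the dose response 7 in place of 0, and in the difference of responses between lines 5 in place of 1. With weights estimated gene by gene, which were added after the data were seen, they were 12, 0 and 2. The differences of responses also gave 2 calls with the mean of all probe sets, with only the groups compared, without the 3 vector 2 h arrays that stood apart and without the 4 arrays with a high Gapdh difference (chosen after seeing the data); in these and gene by gene the further call was Cdh2 at 24 h against 6 h (0.37 to 0.59). Leaving out single arrays gave 5 for the untreated line difference, 37 to 39 for the line difference by condition, 8 to 10 for the time course, 0 for the dose response and 1 to 2 for the differences of responses. With a replicate block over all arrays the counts were 5, 39, 10, 0 and 1. With a block within line the time count was 11, and with a block within line and time the dose count was 0. Of the 47 arrays 33 correlated best with their own number, a hint from the data and not the design. With only the groups compared, Cdh2 (adjusted p = 0.154), Jup (0.0576) and Ctnna1 (0.0505) lost their line difference at 2 h in untreated cells, and Ctnna1 (0.0638) at 6 h after 10 cGy. The causes were not tested. All counts here include Cdh11 within shRNA cells, 2 of the 9 time calls, whose signals lie under the limit and carry no order. The intervals with 2 or 3 arrays a group leave room for dose changes inside them.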

Other observations

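Genes beside Cdh11 in the RefSeq order of its chromosome were looked at after its difference was seen. On one side Got2 (0.43), Setd6 (0.58) and Ndrg4 (1.95) were higher in untreated shRNA cells, with adjusted p at or under 3.02e-07, and Cdh8, the nearest, stood under the low-signal limit (2.35 in shRNA and 2.37 in vector cells). On the other side Cdh5 (3.36 in shRNA and 3.40 in vector cells) and Bean1 (3.26 and 3.14) were under the limit too. There the Tk2 difference of 0.05 was not called (adjusted p = 0.651), and Cklf was higher by 0.67 (adjusted p = 4.02e-08). None of the tested neighbours was called lower in shRNA cells. The other 3 of the 8, among them the nearest gene on either side, could not be called. Of all 8675 tested genes 48.2% differed in this comparison, and 2094 were lower in shRNA cells.

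The protocadherin Pcdh7 fell by 1.11 on the log2 scale in shRNA cells (limma, adjusted p = 5.56e-15) and by 1.26 in vector cells (adjusted p = 2.85e-16) at 24 h against 2 h. Over that interval 42.7% of all tested genes were called in shRNA cells and 44.3% in vector cells.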
